A study of Mus musculus with 48 samples.

Results

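*Epcam*, *Cldn3*, *Cldn4*, *Cldn6*, *Cldn7*, *Ocln*, *Esrp1*, *Esrp2* and *Grhl2* encode proteins of epithelial cell contacts and regulators of epithelial RNA, and they were followed across all 20 conditions of a mouse reprogramming study. They were picked by gene name, with earlier results of these data known, so the shares called among them do not come from a blind choice. These 9 genes are all found among the 24264 transcripts counted. The 48 libraries were made by STRT RNA sequencing, which counts the 5′ ends of polyadenylated transcripts, and levels are given as CPM, the reads of a gene per 1e+06 transcript reads of the library. Since the reads come from transcript starts, CPM is compared between conditions for the same gene and not between genes. The files give 1429717 to 14174725 transcript reads per library (median 6243254), so that a floor of 3 reads corresponds to 0.212 to 2.10 CPM.

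The study followed mouse embryonic fibroblasts (MEFs) that were turned toward induced pluripotent stem cells (iPSCs) by *Oct4*, *Klf4*, *c-Myc* and *Sox2* read from a single transcript, in the order M-K-O-S (MKOS) or O-K-M-S (OKMS). Both cassettes, inducible by doxycycline (dox), had been targeted into the *Sp3* locus of TNG embryonic stem cells (ESCs), which carry a *Nanog*-GFP reporter, and transgenic (Tg) MEFs came from chimeric embryos made with those cells. The OKMS cassette carries a form of *Klf4* that is shorter at the N terminus. Tg MEFs were plated as a small share among wild-type MEFs, in medium with dox and vitamin C. Cells were sorted at day 10 according to the design text, whereas the culture protocol gives 10 or 15 days.

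The sorted populations were 2NG- (CD44- ICAM1- *Nanog*-GFP-), 3NG- (CD44- ICAM1+ *Nanog*-GFP-) and 3NG+ (CD44- ICAM1+ *Nanog*-GFP+). All 3 were taken as E-cadherin-positive (E-CAD+) cells from MKOS and from OKMS cultures, and OKMS 2NG- and 3NG- cells were also taken as E-CAD- cells. These 8 sorted conditions had 3 libraries each. The other 12 conditions had 2 libraries each, namely MEFs (wild type, MKOS and OKMS), ESCs (E14, TNG, TNG MKOS and TNG OKMS), MKOS and OKMS iPSC clones listed as -dox or as 2i, and the D6 iPSC line. The study describes its sequenced iPSCs as independent of dox, but the labels do not say whether the 2i iPSCs received dox. Nothing states whether the numbered libraries of a condition came from separate cultures, so p-values measure the spread between these samples. In bulk samples, fewer cells of a type and less RNA per cell cannot be told apart.

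Fibroblasts are mesenchymal cells that are not joined by tight junctions, and in reprogramming they pass through a mesenchymal-to-epithelial transition in which junction genes are switched on before the pluripotent state is reached. Claudins and occludin are membrane proteins of the tight junction that seal the space between neighbouring epithelial cells. EPCAM is a surface adhesion protein of epithelia and ESCs. ESRP1 and ESRP2 bind RNA and favour the epithelial splice forms of their targets, and GRHL2 is a transcription factor that activates *Cdh1*, claudin and other epithelial genes. CDH1 (E-cadherin) itself is the adherens junction protein on which the cells were sorted, so *Cdh1* RNA between E-CAD+ and E-CAD- cells checks the gate and is no finding.

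The labels were first set beside the RNA of the sorted markers. In the 2NG- gate, OKMS E-CAD+ replicates 1, 2 and 3 had *Cdh1* levels of 159, 182 and 152 CPM, and E-CAD- replicates had 20.5, 51.5 and 4.24 CPM. In the 3NG- gate the levels were 144, 137 and 147 CPM in E-CAD+ and 8.59, 9.76 and 16.1 CPM in E-CAD- cells. E-CAD+ and E-CAD- libraries did not overlap in either gate, and all 6 MEF libraries lay below 1 CPM. *Cd44* RNA was not low throughout the CD44- gates, since it measured 159, 145 and 96.1 CPM in the E-CAD- 3NG- libraries. These lay below OKMS MEFs (252 and 362 CPM). MKOS MEFs had 104 and 123 CPM and wild-type MEFs 119 and 65.4 CPM. *Icam1* RNA was at 0, 0 and 2 reads in OKMS E-CAD+ and 1, 0 and 3 reads in OKMS E-CAD- cells of the ICAM1- 2NG- gate, but at 39, 0 and 32 reads in MKOS 2NG- libraries, where it was called higher than in OKMS cells (FDR = 0.0053) although replicate 2 overlapped. In the *Nanog*-GFP- 2NG- gate, *Nanog* RNA measured 36, 24.8 and 52.8 CPM in OKMS E-CAD+ and 7.59, 15.1 and 15.7 CPM in E-CAD- cells (1.77 ± 0.49 on the log2 scale, FDR = 0.0385).

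Some sorted libraries lay apart from the others of their condition. In OKMS E-CAD+ 2NG- cells replicate 3 was lowest, with *Cd44* at 36.8, 75.8 and 12.5 CPM, *Cldn4* at 123, 92.8 and 39.6 CPM and *Esrp2* at 12.8, 12.6 and 3.03 CPM in replicates 1, 2 and 3. In OKMS E-CAD- 2NG- cells replicate 3 was lowest for *Cdh1* (4.24 CPM) and *Epcam* (5.54 CPM). In OKMS E-CAD+ 3NG- cells, *Cd44* measured 135, 125 and 9.18 CPM, *Cldn3* 57.5, 61.9 and 9.65 CPM and *Cldn4* 80.2, 99.3 and 19.8 CPM in replicates 1, 2 and 3, so that replicate 3 was lowest for each. In OKMS E-CAD+ 3NG+ cells, replicate 2 was the shallowest library of the series (1429717 reads), with *Cd44* at 2.90, 28.0 and 1.72 CPM and *Cldn7* at 5.67, 35.7 and 9.73 CPM in replicates 1, 2 and 3.

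**Figure D1:**
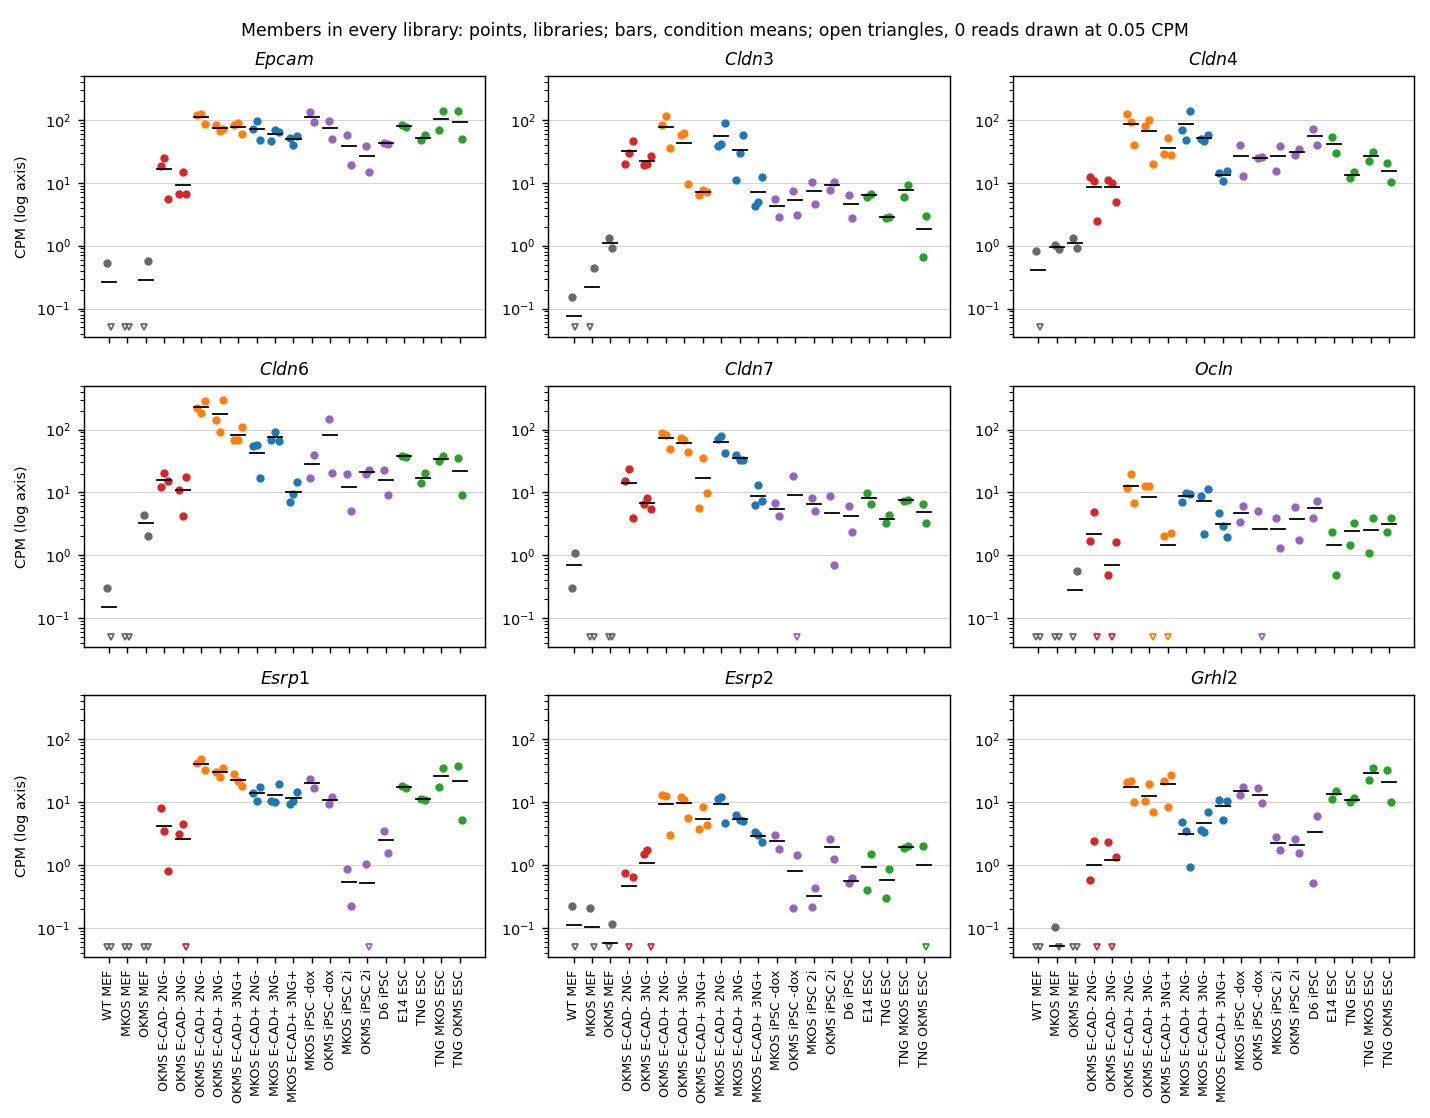
Levels of the 9 genes in each of the 48 libraries, in CPM on a log axis, with 1 panel per gene and the 20 conditions along the horizontal axis (gray MEFs, red OKMS E-CAD-, orange OKMS E-CAD+, blue MKOS E-CAD+, purple iPSCs, green ESCs). Each point is a library, open triangles mark 0 reads, short bars mark condition means, and the MEF means lie lowest for all 9 genes while the OKMS E-CAD- means lie between those of OKMS MEFs and OKMS E-CAD+ cells of the same gate.

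MEFs carried almost none of these transcripts. *Esrp1* had 0 reads in all 6 MEF libraries, *Ocln* and *Grhl2* had 0 reads in 5, *Epcam* and *Cldn7* in 4, *Cldn6* and *Esrp2* in 3, *Cldn3* in 2 and *Cldn4* in 1. The highest level of any of the 9 genes in a MEF library was 4.45 CPM, for *Cldn6* in OKMS MEFs, where the libraries held 24 and 18 reads. A count of 0 in this setting says only that the transcript was below the floor of the library.

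From MEFs to the 2NG- gate, all 9 genes rose in MKOS E-CAD+ cells and all 9 in OKMS E-CAD+ cells (edgeR's quasi-likelihood test, false discovery rate (FDR) by Benjamini-Hochberg at most 0.05, which is what "called", "rose" and "fell" mean throughout). Of the 15630 genes tested, 15.0% were called higher in the MKOS comparison and 15.7% in the OKMS comparison. *Epcam* reached 71.7, 94.0 and 48.4 CPM in the MKOS libraries, at least 339.8-fold above MKOS MEFs with a floor of 3 reads over the MEF group. *Esrp1* in OKMS E-CAD+ replicates reached 42.6, 48 and 32.5 CPM, at least 193-fold above OKMS MEFs on the same floor. No MEF library of the same cassette overlapped a 2NG- E-CAD+ library for any of the 9 genes, where 29.2% of all genes tested lay wholly above the MEFs with MKOS and 21.6% with OKMS. The *Ocln* call was lost without MKOS MEF replicate 1 (FDR = 0.0618) and, for OKMS, without OKMS MEF replicate 1 (FDR = 0.113).

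OKMS E-CAD- 2NG- cells also differed from OKMS MEFs, though less far. In this comparison 7 of the 9 genes rose, beside 11.7% of all genes tested. Markers of other cell types moved as well. The summed level of 7 fibroblast genes was 3210 ± 506 CPM (SD, n = 2) in OKMS MEFs and 601 ± 62.1 CPM (n = 3) in E-CAD- 2NG- cells. That of 6 pluripotent cell genes was 5.82 ± 3.05 and 194 ± 41.9 CPM, and the part of these markers was not tested. In the E-CAD- libraries *Cldn3* stood at 20.1, 30.2 and 46.6 CPM, 30.4-fold above its pooled MEF level. *Cldn7* stood at 15.0, 23.7 and 3.91 CPM, at least 66.8-fold above OKMS MEFs with a floor of 3 reads over the MEF group. *Epcam* stood at 18.6, 24.7 and 5.54 CPM, 46.0-fold above its pooled MEF level. That level rests on 0 and 5 reads in OKMS MEF replicates 1 and 2. All 3 E-CAD- libraries lay above both OKMS MEF libraries for 6 of the 9 genes, these 3 included, where 21.7% of all genes tested lay wholly above, and *Grhl2*, *Ocln* and *Esrp2* overlapped. *Esrp2* and *Ocln* were not called, with 4, 0 and 4 and 9, 14 and 0 reads in the 3 E-CAD- libraries. The *Grhl2* call was lost without E-CAD- replicate 1 (FDR = 0.0542) or 2 (FDR = 0.227) and without OKMS MEF replicate 1 (FDR = 0.131) or 2 (FDR = 0.257). That of *Cldn6* was lost without E-CAD- replicate 2 (FDR = 0.0572) or OKMS MEF replicate 2 (FDR = 0.271), and with a block for replicate number (FDR = 0.0579). That of *Cldn4* was lost without OKMS MEF replicate 2 (FDR = 0.0991).

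The comparison of E-CAD+ with E-CAD- cells asks what separates OKMS cells on either side of the epithelial transition within the same CD44 and ICAM1 gate. In the 2NG- gate, 7 of the 9 genes were higher in E-CAD+ cells, where 1.69% of all genes tested were higher. *Cldn6*, *Epcam*, *Cldn4*, *Grhl2*, *Esrp1*, *Esrp2* and *Cldn7* rose, and *Cldn3* and *Ocln* were not called. The median log2 difference of the 9 genes was 3.40, against 0.00 over all genes tested. Libraries of the 2 groups did not overlap for 8 of the 9 genes, the exception being *Cldn3*, and 5.74% of all genes tested lay wholly above in E-CAD+ cells. Without E-CAD+ replicate 3, 7 of the 9 were called. Leaving out E-CAD+ replicate 1 or 2, or E-CAD- replicate 1, 2 or 3, left 5 called, *Cldn7* and *Esrp2* being lost each time.

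*Epcam*, the adhesion protein gene, measured 118, 126 and 86.5 CPM in the E-CAD+ 2NG- libraries and 18.6, 24.7 and 5.54 CPM in the E-CAD- 2NG- libraries. Every E-CAD+ library lay above every E-CAD- library. The log2 fold change was 2.90 ± 0.44 (SE, FDR = 5.26e-05), and the mean level in E-CAD- cells was 14.8% of that in E-CAD+ cells.

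Among the claudins, *Cldn6*, known from early embryonic epithelia, had the highest fold change. It measured 217, 185 and 287 CPM in E-CAD+ and 12.1, 20.3 and 15.0 CPM in E-CAD- 2NG- libraries, a log2 fold change of 4.04 ± 0.60 (FDR = 4.81e-05). *Cldn4*, a claudin of tight epithelia, measured 123, 92.8 and 39.6 against 12.5, 10.6 and 2.45 CPM (3.44 ± 0.55, FDR = 0.000108). In both genes the lowest E-CAD+ library was above the highest E-CAD- library. *Cldn7*, which binds EPCAM in epithelia, measured 89.5, 82.5 and 48.4 against 15.0, 23.7 and 3.91 CPM (2.52 ± 0.71, FDR = 0.0471), a call that was lost when any of 5 single libraries was left out (FDR = 0.0513 to 0.239) or with DESeq2 size factors in edgeR (FDR = 0.0596). It was also lost (FDR = 0.146) without 7 sorted libraries that do not enter the study's tabulated averages, namely OKMS E-CAD+ 3NG+ replicate 2 and replicate 3 of the 2NG- and 3NG- conditions of MKOS E-CAD+, OKMS E-CAD+ and OKMS E-CAD- cells.

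*Cldn3*, a claudin of intestinal and other epithelia, measured 81.5, 114 and 35.3 CPM in E-CAD+ and 20.1, 30.2 and 46.6 CPM in E-CAD- 2NG- libraries. Replicate 3 of E-CAD+ cells lay below replicate 3 of E-CAD- cells, so the groups overlapped. The log2 difference was 1.37 ± 0.55 (FDR = 0.209). Whether the *Cldn3* difference is smaller than those of *Cldn4* or *Cldn6* was not tested. *Ocln*, the occludin gene, was sparse at 11.8, 19.3 and 6.91 against 1.71, 4.81 and 0 CPM, with a log2 difference of 2.72 ± 1.19 (FDR = 0.263) and no overlap.

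The ESRP genes and *Grhl2* were low in E-CAD- cells. *Esrp1* measured 42.6, 48 and 32.5 CPM in E-CAD+ and 8.16, 3.43 and 0.815 CPM in E-CAD- 2NG- libraries (3.40 ± 0.67, FDR = 0.00217). *Esrp2* measured 12.8, 12.6 and 3.03 against 0.759, 0 and 0.652 CPM (4.25 ± 1.07, FDR = 0.0192), and *Grhl2* 20.8, 21.9 and 10.0 against 0.569, 2.40 and 0 CPM (4.52 ± 0.87, FDR = 0.00157). For these 3 genes every E-CAD+ library was above every E-CAD- library, and no E-CAD- 2NG- library held more than 4 *Esrp2* or 7 *Grhl2* reads. The call of *Esrp2* was lost without any of 5 single libraries (FDR = 0.0513 to 0.0974).

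In the 3NG- gate, 6 of the 9 genes were higher in E-CAD+ cells, beside 1.59% of all genes tested, with a median log2 difference of 3.27 against 0.00 over all genes. *Epcam* measured 83.7, 67.6 and 70.6 CPM in E-CAD+ and 6.61, 14.6 and 6.53 CPM in E-CAD- libraries (3.14 ± 0.46, FDR = 2.27e-05). *Cldn6* measured 142, 92.6 and 294 against 11.1, 4.18 and 17.7 CPM (4.10 ± 0.61, FDR = 2.62e-05), and *Esrp1* 30.0, 24.8 and 34.4 against 3.14, 4.53 and 0 CPM (3.64 ± 0.70, FDR = 0.00125). None of these 3 genes overlapped between the groups, in a gate where 7.28% of all genes tested lay wholly above in E-CAD+ cells. *Cldn4* (3.03 ± 0.54, FDR = 0.000506), *Cldn7* (3.30 ± 0.75, FDR = 0.00908) and *Grhl2* (3.27 ± 0.80, FDR = 0.0191) also rose.

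*Esrp2* (3.21 ± 1.01, FDR = 0.109), *Ocln* (3.62 ± 1.28, FDR = 0.179) and *Cldn3* (1.07 ± 0.55, FDR = 0.44) were not called in the 3NG- gate, and DESeq2 called *Esrp2* (3.20, FDR = 0.0117). *Ocln* and *Cldn3* overlapped between the groups because of E-CAD+ replicate 3, which had 0 *Ocln* reads. Without that library the same 6 genes were called, and the log2 differences were 4.19 ± 1.23 for *Ocln* (FDR = 0.103) and 1.53 ± 0.55 for *Cldn3* (FDR = 0.286). *Cldn7* lost its call without E-CAD- replicate 1 (FDR = 0.0573) or 3 (FDR = 0.0730), and *Grhl2* without E-CAD+ replicate 2 (FDR = 0.0890), E-CAD- replicate 2 (FDR = 0.129) or E-CAD- replicate 3 (FDR = 0.0909).

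The E-CAD difference in 3NG- minus that in 2NG- ranged from -1.25 ± 1.16 for *Grhl2* to 0.90 ± 1.66 for *Ocln* on the log2 scale. No member was called by edgeR's test of this difference, 0 had an unadjusted p under 0.05, DESeq2 called 0, and 0.0128% of all genes were called. Without OKMS E-CAD+ 3NG- replicate 3 the range was -0.99 for *Grhl2* to 1.48 for *Ocln*, again with 0 called.

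**Figure D2:**
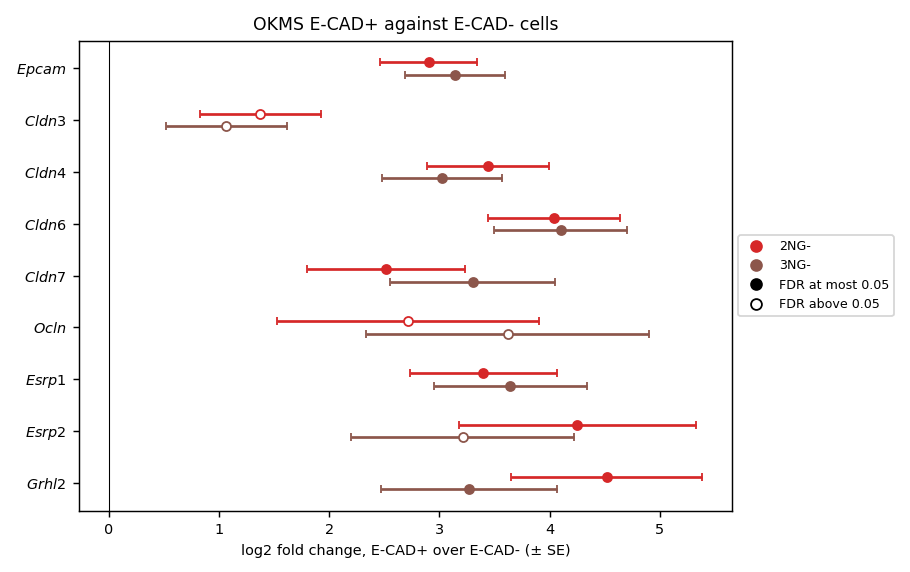
Log2 fold change of E-CAD+ over E-CAD- OKMS cells for the 9 genes, with the standard error as bars, in the 2NG- and 3NG- gates. All values are above 0, *Cldn3* lies lowest in both gates (1.37 and 1.07), and filled points are called at an FDR of at most 0.05.

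The E-box CACCTG is a site bound by ZEB and SNAI repressors of epithelial genes, and the sequences before the gene starts were searched for it. RefSeq promoters (GRCm38.p6) were matched for 6 of the 9 genes. Capitals mark E-box matches on either strand (CACCTG or its reverse complement CAGGTG). *Epcam* (chr17:87635729-87635978, plus strand), *Cldn4* (chr5:134946935-134947184, minus strand) and *Cldn6* (chr17:23679115-23679347, plus strand) hold matches, and *Cldn3* (chr5:134985964-134986213, plus strand) holds none. *Cldn7*, which was called between E-CAD+ and E-CAD- cells, and *Ocln*, which was not, also hold none at their first start and are not printed. Each sequence ends at the base before the annotated start.
Epcam: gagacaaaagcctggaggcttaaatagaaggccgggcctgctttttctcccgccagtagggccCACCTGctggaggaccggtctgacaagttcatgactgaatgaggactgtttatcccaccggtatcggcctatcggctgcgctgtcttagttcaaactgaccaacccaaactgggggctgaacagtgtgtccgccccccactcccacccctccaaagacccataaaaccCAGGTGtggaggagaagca
Cldn4: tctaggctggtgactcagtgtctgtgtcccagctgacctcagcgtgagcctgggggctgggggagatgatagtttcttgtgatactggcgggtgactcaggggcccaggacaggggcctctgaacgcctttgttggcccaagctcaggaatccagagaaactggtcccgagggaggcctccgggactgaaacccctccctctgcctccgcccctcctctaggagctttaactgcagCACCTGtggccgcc
Cldn6: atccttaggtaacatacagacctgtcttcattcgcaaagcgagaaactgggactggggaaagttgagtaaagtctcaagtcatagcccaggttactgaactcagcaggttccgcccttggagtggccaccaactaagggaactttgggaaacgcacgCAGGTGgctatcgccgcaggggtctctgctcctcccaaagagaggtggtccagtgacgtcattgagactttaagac
Cldn3: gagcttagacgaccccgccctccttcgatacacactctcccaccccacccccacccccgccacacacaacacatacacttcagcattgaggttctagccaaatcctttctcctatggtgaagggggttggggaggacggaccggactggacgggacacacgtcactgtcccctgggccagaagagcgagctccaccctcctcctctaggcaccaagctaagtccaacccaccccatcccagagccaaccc

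Over the 8 promoters of these 6 genes, 5 held an E-box match (2 in *Epcam*, 1 in *Cldn4*, 1 in *Cldn6*, 2 at the second start of *Cldn7*, whose other start holds none, and 2 at the second start of *Ocln*), and 17.2% of the 32851 promoters in the table held at least 1. The GRHL motif AACCGGTT had 0 matches, as did its looser form AACCNGTT, which contains the former, and they occurred in 0.116% and 1.79% of all promoters. The KLF motif CCACCC was found in 4 of the 8 and in 28.1% of all promoters, and *Cldn3* held 5 matches. These are matches of letters within 250 bases and describe no binding.

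Other epithelial genes rose with them in E-CAD+ 2NG- cells. Of 16 further tight junction genes, 0 fell and 4 rose, among them *F11r* (JAM-A), *Crb3* and *Ildr1*. *Crb3*, an apical polarity protein, had a mean of 39.7 CPM in E-CAD+ and 5.71 CPM in E-CAD- cells (2.99 ± 0.55, FDR = 0.000942). In the 3NG- gate 5 of 16 rose. None of the 8 other claudins that could be tested, of 21 in the table, was called by edgeR or DESeq2 in either gate (1 in 2NG- and 2 in 3NG- had an unadjusted p under 0.05).

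Of 15 adherens junction and desmosome genes, 6 rose in 2NG- and 5 in 3NG-, and they include *Cdh1*, on whose protein the cells were sorted. *Dsg2*, a desmosomal cadherin, had a mean of 25.4 CPM in E-CAD+ and 3.20 CPM in E-CAD- 2NG- cells (3.23 ± 0.57, FDR = 0.000423). *Cdh3* (P-cadherin, 2.75 ± 0.50, FDR = 0.000669) and *Pvrl2* (a nectin, 1.68 ± 0.32, FDR = 0.00123) rose as well. Of 6 surface proteases and their inhibitors, 3 rose in each gate, and *Prss8* (prostasin) had means of 33.9 and 3.65 CPM in the 2NG- gate (3.42 ± 0.82, FDR = 0.0139).

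Of 10 further epithelial transcription factors, 1 rose in each gate, namely *Elf3*, with means of 46.1 CPM in E-CAD+ and 7.93 CPM in E-CAD- 2NG- cells (2.68 ± 0.57, FDR = 0.00432). Of 12 other splicing regulators, edgeR called 0 in 2NG- (4 had an unadjusted p under 0.05, and DESeq2 called 1), and in 3NG- *Rbm47* rose and *Khdrbs3* fell. Of 8 genes whose splicing is known to be set by ESRPs, edgeR and DESeq2 called 0 in either gate (1 in 2NG- and 0 in 3NG- had an unadjusted p under 0.05). Counts of 5′ ends carry no measure of splice forms, so splicing itself was not measured here. *Zeb1* and *Zeb2*, repressors of *Cdh1* and other epithelial genes, were the 2 of 6 repressors that fell in 2NG- E-CAD+ cells. *Zeb1* had means of 0.986 CPM in E-CAD+ and 14.8 CPM in E-CAD- cells (-3.48 ± 0.65, FDR = 0.00103), and *Zeb2* of 1.51 and 20.5 CPM (-3.36 ± 0.91, FDR = 0.0321).

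Markers of other cell types moved with the E-CAD gate. The summed level of 7 fibroblast genes was 151 ± 94.7 CPM (SD, n = 3) in E-CAD+ and 601 ± 62.1 CPM in E-CAD- 2NG- cells, with *Col1a2* the most abundant and none at 0 reads, and 3 of the 7 fell (*Col3a1*, *Col1a2*, *Col1a1*). The same sum was 2852 to 3568 CPM in OKMS and 4733 to 5144 CPM in MKOS MEFs. The summed level of 6 pluripotent cell genes was 1659 ± 1438 CPM in E-CAD+ and 194 ± 41.9 CPM in E-CAD- 2NG- cells, mostly from *Dppa5a*, and all 6 rose. In the 3NG- gate the fibroblast sum was 229 ± 65.2 CPM in E-CAD+ and 692 ± 197 CPM in E-CAD- cells, and 1 of the 7 fell (*Col3a1*). The pluripotent cell sum was 3166 ± 2121 against 196 ± 30.0 CPM there, and 5 of the 6 rose. *Zeb1* was the 1 of 6 repressors that fell in the 3NG- gate. Of 6 trophoblast genes edgeR and DESeq2 called 0 in 2NG- (3 with an unadjusted p under 0.05), and *Elf5* rose in 3NG-. The trophoblast sum was nevertheless higher in E-CAD+ cells without overlap, at 76.1 ± 13.2 against 23.9 ± 14.3 CPM in 2NG- (*Tfap2c* and *Eomes* the most abundant, respectively) and 71.2 ± 34.0 against 16.4 ± 15.3 CPM in 3NG-. Both tools called 0 of 3 tested keratinocyte genes (2 with an unadjusted p under 0.05 in each gate) and 0 of 5 primitive endoderm genes (2 in 2NG- and 0 in 3NG-). The median log2 difference of the 3 keratinocyte genes in 2NG- was 5.83. All 4 keratinocyte genes of the list summed to 12.5 ± 10.4 CPM in E-CAD+ and 0.0632 ± 0.110 CPM in E-CAD- 2NG- cells. The part of these cell type markers in the differences of the 9 genes was not tested.

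**Figure D3:**
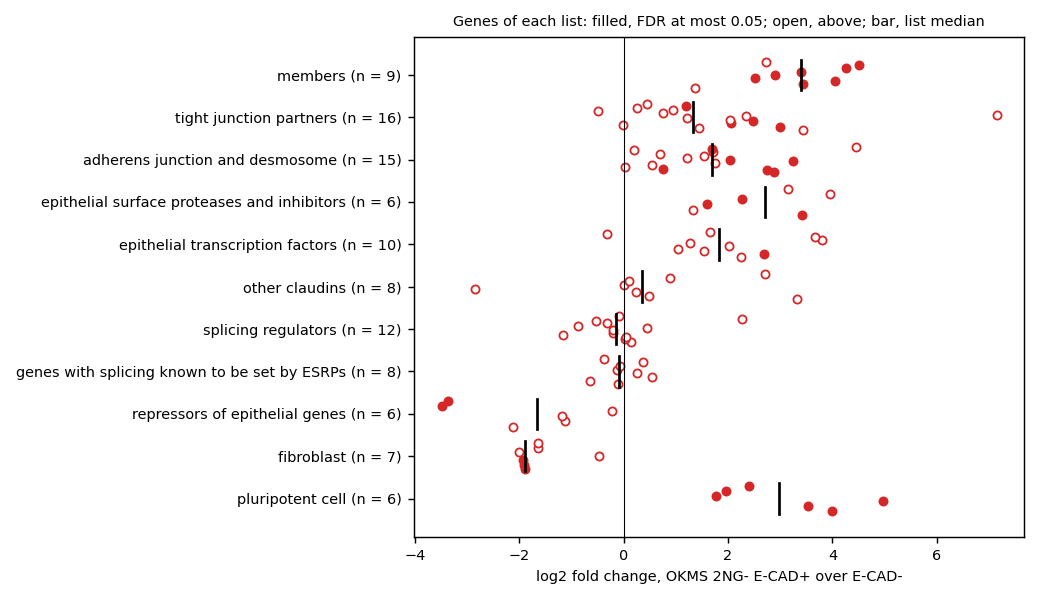
Log2 fold change of E-CAD+ over E-CAD- OKMS 2NG- cells for each gene of the lists (1 point per gene, 1 row per list), with the median of each list. The 9 genes have a median of 3.40, against 2.97 for pluripotent cell genes, 2.70 for surface proteases and inhibitors, 1.68 for adherens junction and desmosome genes and -0.15 for splicing regulators.

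MKOS and OKMS E-CAD+ cells were compared within each gate, to see how far the cassettes differ after the epithelial transition. In the 2NG- gate 2 of the 9 genes were lower in MKOS cells, beside 2.23% of all genes tested, and 0 were higher. The levels of the other 7 genes were also below those of OKMS cells on the fitted scale, with differences from -1.62 ± 0.60 for *Esrp1* (FDR = 0.12) to -0.05 for *Cldn4* and no call, and *Cldn4* and *Esrp2* changed sign when some single libraries were left out.

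*Cldn6* measured 54.0, 56.4 and 16.8 CPM in MKOS and 217, 185 and 287 CPM in OKMS 2NG- libraries. The groups did not overlap, and the log2 difference was -2.55 ± 0.55 (FDR = 0.00299). *Grhl2* measured 4.79, 3.54 and 0.948 CPM in MKOS and 20.8, 21.9 and 10.0 CPM in OKMS libraries (-2.55 ± 0.72, FDR = 0.029), again without overlap. Without the 7 sorted libraries outside the study's tabulated averages, the differences were -1.97 for *Cldn6* (FDR = 0.0529) and -2.44 for *Grhl2* (FDR = 0.0536), and neither was called. *Grhl2* also lost its call when any of 4 single libraries was left out (FDR = 0.0703 to 0.143).

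In the 3NG- gate *Cldn6* measured 68.3, 90.2 and 66.6 CPM in MKOS and 142, 92.6 and 294 CPM in OKMS libraries (-1.37 ± 0.53, FDR = 0.195). The groups did not overlap, and edgeR called 0 of the 9 genes (3 had an unadjusted p under 0.05, and DESeq2 called 0), with 2.17% of all genes called in either direction. The highest OKMS value came from replicate 3, which stood apart in other genes too, and without it the *Cldn6* difference was -0.74 ± 0.55 (FDR = 0.609). In the 3NG+ gate *Cldn6* measured 6.94, 9.48 and 14.6 CPM in MKOS and 68.2, 68.5 and 109.9 CPM in OKMS libraries. It was the only gene of the 9 called in 3NG+, at -3.12 ± 0.58 (FDR = 0.0033), where 0.339% of all genes were lower, and without OKMS 3NG+ replicate 2 the value was -3.26 ± 0.62 (FDR = 0.00477). *Cldn4* in 3NG+ cells differed by -1.54 ± 0.51 (FDR = 0.17). Markers also differed there without overlap. The trophoblast sum was 9.53 ± 3.31 CPM in MKOS and 20.9 ± 2.92 CPM in OKMS 3NG+ cells, and the pluripotent cell sum 12346 ± 776 and 15873 ± 709 CPM. *Cdh1* measured 72.4, 62.6 and 91.5 against 150, 106 and 151 CPM. The keratinocyte sum was higher in MKOS cells (7.16 ± 10.9 against 0.0841 ± 0.146 CPM). The part of these markers in the *Cldn6* difference was not tested. The *Cldn6* difference in 3NG- minus that in 3NG+ was 1.76 ± 0.76 and was not called (FDR = 0.572). Whether the difference in 2NG- departs from those in the other gates was not tested.

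**Figure D4:**
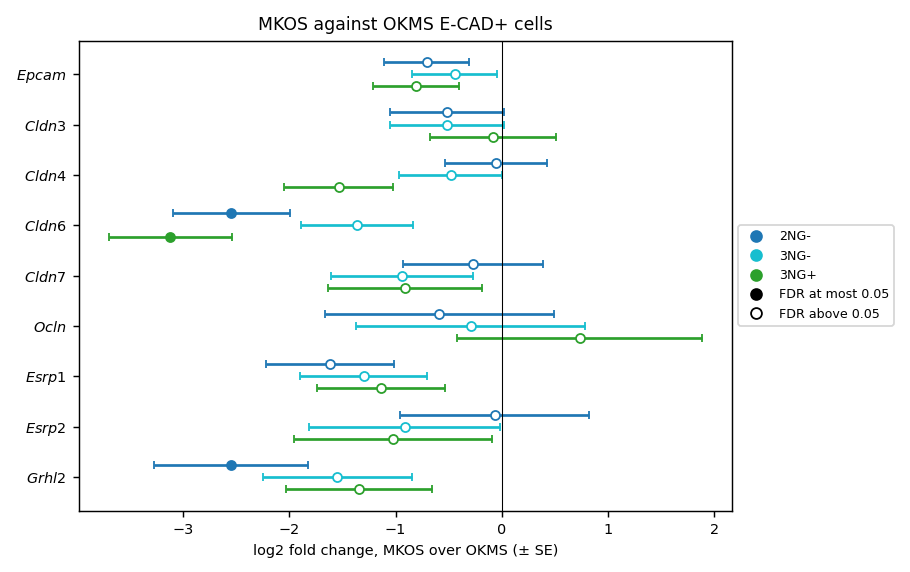
Log2 fold change of MKOS over OKMS E-CAD+ cells for the 9 genes in the 2NG-, 3NG- and 3NG+ gates, with the standard error as bars and filled points called at an FDR of at most 0.05. *Cldn6* lies at -2.55, -1.37 and -3.12 (-0.74 in 3NG- without OKMS 3NG- replicate 3), and *Grhl2* is called in 2NG- alone.

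Of the wider epithelial lists in 2NG- cells, 0 of 16 tight junction genes were called between the cassettes by edgeR or DESeq2 (2 had an unadjusted p under 0.05). *Prss8* (-2.76 ± 0.78, FDR = 0.0283), *Elf3* (-3.14 ± 0.57, FDR = 0.000394) and *Pkp2*, a desmosomal plaque gene (-1.77 ± 0.50, FDR = 0.0288), were lower in MKOS cells, and *Ctnna1* was higher (0.57 ± 0.17, FDR = 0.0446). *Ptbp2*, a splicing repressor best known from neurons, was the 1 splicing regulator called of 12 (-1.95 ± 0.51, FDR = 0.0160), and *Snai1*, a repressor of *Cdh1*, was higher (2.95 ± 0.72, FDR = 0.00906).

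Fibroblast genes were higher in MKOS 2NG- cells, where 4 of 7 rose (*Col1a2*, *Col1a1*, *Postn* and *Col3a1*) and the sum was 571 ± 202 CPM against 151 ± 94.7 CPM in OKMS cells. Among pluripotent cell genes *Zfp42* (2.60 ± 0.43, FDR = 0.000123) and *Esrrb* (1.90 ± 0.38, FDR = 0.00146) were higher in MKOS cells. *Eomes*, a trophoblast and mesendoderm factor, was lower, with means of 0.147 CPM in MKOS and 20.1 CPM in OKMS cells (FDR = 0.0161), as 1 of 6 trophoblast genes. The trophoblast sum was 28.1 ± 7.22 CPM in MKOS and 76.1 ± 13.2 CPM in OKMS 2NG- cells, without overlap, and the keratinocyte sum was 87.7 ± 77.3 against 12.5 ± 10.4 CPM, with overlap. The part of these markers in the *Cldn6* and *Grhl2* differences was not tested.

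Along the sorted stages, the step from 2NG- to 3NG- left the 9 genes without a call in MKOS E-CAD+, OKMS E-CAD+ and OKMS E-CAD- cells. The edgeR test called 0 in each of these 3 comparisons, 0 had an unadjusted p under 0.05, and DESeq2 called 0, with 0.390%, 0.0384% and 0.0448% of all genes called. Member differences ran from -0.97 to 0.74 in MKOS, from -0.87 to -0.01 in OKMS E-CAD+ and from -1.51 to 1.03 in OKMS E-CAD- cells on the log2 scale. Without OKMS E-CAD+ 3NG- replicate 3 the OKMS E-CAD+ range was -1.07 (*Cldn6*) to 0.24 (*Esrp2*), with 0 called.

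From 3NG- to 3NG+, where *Nanog*-GFP is gained, the calls were of claudins. In MKOS cells *Cldn6* went from 68.3, 90.2 and 66.6 CPM to 6.94, 9.48 and 14.6 CPM (-2.65 ± 0.57, FDR = 0.00855), without overlap, and it was the 1 gene of the 9 that fell, beside 1.02% of all genes tested. *Cldn4* (-1.77 ± 0.51, FDR = 0.0598) and *Cldn3* (-1.97 ± 0.57, FDR = 0.0636) were not called, and DESeq2 called 3 of the 9. With a block for replicate number *Cldn4* (FDR = 0.0347) and *Cldn3* (FDR = 0.0437) were called, but no source ties these numbers to shared cultures. Without MKOS 3NG+ replicate 2 the *Cldn6* call was lost (FDR = 0.0709).

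In OKMS cells *Cldn3* went from 57.5, 61.9 and 9.65 CPM in 3NG- to 6.43, 7.69 and 7.01 CPM in 3NG+ cells (-2.40 ± 0.59, FDR = 0.0104). It was the 1 gene of the 9 that fell, beside 3.21% of all genes, and every 3NG+ library was below every 3NG- library. Without 3NG- replicate 3 the value was -2.86 ± 0.58 (FDR = 0.00116), and without 3NG+ replicate 2 it was -2.43 ± 0.68 (FDR = 0.0271). Leaving out 3NG- replicate 1 or 2, or 3NG+ replicate 1, lost the call (FDR = 0.0536 to 0.0733). *Cldn7* was called without 3NG+ replicate 2 (-2.75 ± 0.81, FDR = 0.0359, against -1.81 ± 0.71, FDR = 0.122 with it). With the block for replicate number *Cldn7* was called as well (-1.90, FDR = 0.0494).

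*Epcam*, *Esrp1*, *Esrp2*, *Ocln* and *Grhl2* were called in neither cassette at this step. The change in OKMS minus that in MKOS was not called by edgeR for any of the 9 genes (1 had an unadjusted p under 0.05, *Cldn6* at 1.76 ± 0.76 with FDR = 0.572, and DESeq2 called 0), with 0.0256% of all genes called. The *Cldn6* value was 2.38 (FDR = 0.303) without OKMS 3NG- replicate 3 and 1.89 (FDR = 0.581) without OKMS 3NG+ replicate 2. Markers of other cell types moved at the same step. The pluripotent cell sum went from 8558 ± 1049 to 12346 ± 776 CPM in MKOS (edgeR and DESeq2 called 0 of 6, 2 with an unadjusted p under 0.05) and from 3166 ± 2121 to 15873 ± 709 CPM in OKMS cells, where 4 of 6 rose. The trophoblast sum went from 39.7 ± 10.4 to 9.53 ± 3.31 CPM in MKOS (edgeR called 0 of 6, 4 with an unadjusted p under 0.05, DESeq2 1) and from 71.2 ± 34.0 to 20.9 ± 2.92 CPM in OKMS cells (*Elf5* fell), with no overlap in either. The keratinocyte sum, mostly *Krt14*, went from 56.3 ± 41.4 to 7.16 ± 10.9 CPM in MKOS and from 13.1 ± 11.9 to 0.0841 ± 0.146 CPM in OKMS cells (*Krt14* fell in OKMS). Their part in the claudin changes was not tested.

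From 3NG+ cells to iPSCs listed as -dox, edgeR called 0 of the 9 genes with MKOS (2 with an unadjusted p under 0.05, DESeq2 0) and 0 with OKMS (1 and 0), beside 2.14% and 0.614% of all genes. Member differences ran from -0.80 (*Cldn3*) to 1.37 (*Cldn6*) with MKOS and from -2.71 (*Esrp2*) to 0.60 (*Ocln*) with OKMS on the log2 scale, or from -2.35 to 0.21 without OKMS 3NG+ replicate 2.

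Medium with 2i, inhibitors of MEK and GSK3 that hold pluripotent cells in a ground state, went with lower levels of 4 of the 9 genes in iPSCs, beside 2.45% of all genes tested. *Esrp1* measured 23.2 and 16.5 CPM in the 2 MKOS iPSC -dox libraries and 0.865 and 0.220 CPM in 2i, with 224 and 93 against 4 and 1 reads. In OKMS iPSCs it measured 9.48 and 12.3 CPM in -dox and 1.06 and 0 CPM in 2i libraries, with 46 and 69 against 6 and 0 reads. The 4 libraries in 2i all lay below the 4 listed as -dox, and the log2 fold change over both cassettes was -4.84 ± 0.70 (FDR = 1.72e-05).

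*Grhl2* measured 12.9 and 17.7 CPM in MKOS iPSC -dox and 2.81 and 1.76 CPM in MKOS 2i libraries, and 16.7 and 9.62 against 2.64 and 1.58 CPM in OKMS iPSCs (-2.79 ± 0.65, FDR = 0.00768), again with no overlap. *Epcam* measured 131 and 93.1 against 58.2 and 18.9 CPM in MKOS and 96.7 and 49.2 against 38.9 and 14.9 CPM in OKMS iPSCs (-1.61 ± 0.36, FDR = 0.00443), where the highest 2i library lay above the lowest -dox library. *Cldn6* fell as well (-1.71 ± 0.48, FDR = 0.0291), with 16.8 and 39.4 against 19.5 and 5.06 CPM in MKOS and 146 and 20.3 against 19.4 and 22.7 CPM in OKMS iPSCs, so that OKMS -dox replicate 1 was far above the rest. Without that library the difference was -0.66 (FDR = 0.555), and the call was also lost without MKOS -dox replicate 2, MKOS 2i replicate 2, or OKMS 2i replicate 1 or 2 (FDR = 0.0784 to 0.194). Without OKMS 2i replicate 2, *Epcam* (FDR = 0.0519) and *Grhl2* (FDR = 0.0531) were not called either. *Cldn3* (0.68 ± 0.51) and *Cldn4* (0.07 ± 0.43) were not called.

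Within a single cassette *Esrp1* alone was called, at -5.21 ± 1.00 (FDR = 0.00230) in MKOS and -4.47 ± 0.98 (FDR = 0.0185) in OKMS iPSCs, while *Grhl2* gave -2.80 ± 0.93 (FDR = 0.112) and -2.78 ± 0.92 (FDR = 0.190). *Cdh1* was 144 and 120.3 CPM in MKOS -dox and 121 and 163 CPM in MKOS 2i libraries, and 76.9 and 82.3 against 113 and 123 CPM in OKMS. Of 16 further tight junction genes edgeR called 0 (4 with an unadjusted p under 0.05, DESeq2 1), and of 15 adherens junction and desmosome genes it called 0 as well (3 and 1). Among epithelial transcription factors *Grhl1* and *Tfap2a* rose and *Elf3* fell in 2i. *Prss8*, a surface protease gene, fell (-2.46 ± 0.73, FDR = 0.0452), as did *Enah* (-0.999 ± 0.221, FDR = 0.00437), 1 of the 8 genes whose splicing is known to be set by ESRPs. Pluripotent cell genes summed to 17162 ± 1564 and 16985 ± 49.9 CPM in MKOS and OKMS -dox and to 16437 ± 633 and 15547 ± 4022 CPM in 2i libraries. *Tdgf1*, 1 of the 6, fell, and its part in the result was not tested.

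**Figure D5:**
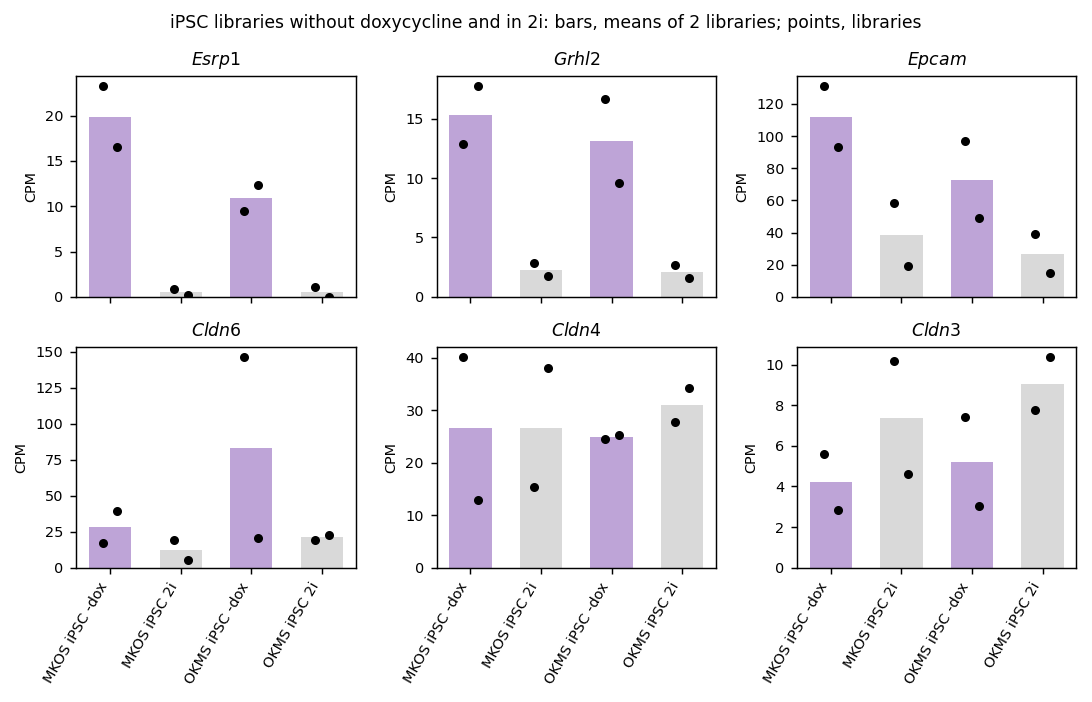
Levels in CPM of *Esrp1*, *Grhl2*, *Epcam*, *Cldn6*, *Cldn4* and *Cldn3* in MKOS and OKMS iPSCs listed as -dox or 2i, with points for libraries and bars for the mean of 2 libraries. *Esrp1* and *Grhl2* are lower in all 4 libraries in 2i, whereas *Cldn3* and *Cldn4* libraries overlap.

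Established iPSCs listed as -dox were set beside TNG MKOS and TNG OKMS ESCs. The test called 0 of the 9 genes (1 with an unadjusted p under 0.05, DESeq2 0), beside 1.40% of all genes, and all 9 genes overlapped, as did all but 5.04% of the genes tested. Against MKOS and OKMS MEFs, these ESCs were higher for all 9 genes, beside 26.0% of all genes, and 7 of the 9 did not overlap, where 21.0% of all genes tested lay wholly above the MEFs. *Esrp2* and *Cldn3* overlapped, and *Esrp2* lost its call without TNG OKMS ESC replicate 1 (0.75, FDR = 0.888). *Epcam* averaged 105 and 92.7 CPM in TNG MKOS and TNG OKMS ESCs.

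Ordered by mean level over the 20 conditions, the highest mean was not in the same condition for all 9 genes. For each gene the libraries of the highest condition overlapped those of the second. OKMS E-CAD+ 2NG- cells were highest for *Cldn3* (76.8 ± 39.5 CPM, SD, n = 3), *Cldn6* (229.9 ± 52.3 CPM), *Cldn7* (73.5 ± 22.0 CPM), *Esrp1* (41.1 ± 7.87 CPM) and *Ocln* (12.7 ± 6.26 CPM). *Grhl2* was highest in TNG MKOS ESCs (28.9 ± 9.15 CPM, n = 2). *Epcam* was highest in MKOS iPSCs listed as -dox (112 ± 26.7 CPM, n = 2), next to OKMS E-CAD+ 2NG- cells (109.9 ± 20.7 CPM). *Cldn4* was highest in MKOS E-CAD+ 2NG- cells (85.9 ± 48.5 CPM), next to OKMS E-CAD+ 2NG- cells (85.1 ± 42.2 CPM). *Esrp2* was highest in OKMS E-CAD+ 3NG- cells (9.55 ± 3.42 CPM), again next to OKMS E-CAD+ 2NG- cells (9.46 ± 5.57 CPM). The ranges of neighbouring conditions overlapped for 16 to 19 of the 19 neighbour pairs, depending on the gene, so single steps in the order are mostly not larger than the spread.

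*Cldn3* and *Cldn7* were low in pluripotent cells. *Cldn3* averaged 6.26 CPM in E14, 2.82 CPM in TNG and 4.57 CPM in D6 cells, against 55.8 and 76.8 CPM in MKOS and OKMS 2NG- E-CAD+ cells. *Epcam* averaged 79.6 CPM in E14 and 51.9 CPM in TNG ESCs, within the 48.7 to 109.9 CPM spanned by the means of the sorted E-CAD+ conditions. Its mean lay below that span in D6 (42.1 CPM), MKOS 2i (38.5 CPM) and OKMS 2i iPSCs (26.9 CPM), and above it in MKOS iPSCs listed as -dox (112 CPM). D6 iPSCs had *Esrp1* at 3.52 and 1.58 CPM and *Grhl2* at 0.518 and 6.13 CPM, and *Cldn4* at 71.8 and 39.1 CPM.

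The pattern of each gene over the 20 condition means, as log2(CPM + 1), was set beside every other gene. These points share libraries and depth, and the correlations are descriptions. *Epcam* was nearest to *Cdh1* (Pearson r = 0.972), *Foxh1* (0.970) and *Grb7* (0.967). *Cldn4* was nearest to *Cdh1* (0.942) and *St14* (0.932), *Cldn6* to *Prss8* (0.921) and *Ap1m2* (0.913), and *Cldn7* and *Esrp2* to *Krtcap3* (0.929 and 0.930) and *Crb3* (0.915 and 0.902). *Grhl2* was nearest to *Dnmt3b* (0.940), a DNA methyltransferase of pluripotent cells, and *Esrp1* to *2610528J11Rik* (0.923). *Cldn3* was nearest to *Prkaa2* (0.919) and *Dsp* (0.917), and *Ocln* to *St14* (0.879).

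Among themselves the 9 genes gave 36 pairs, with r from 0.256 (*Cldn3* and *Grhl2*) to 0.905 (*Cldn3* and *Cldn7*). *Esrp1* and *Grhl2*, both low in 2i, gave 0.902.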

How the data were processed

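The authors made STRT libraries and deposited raw read counts per transcript for 48 libraries, with no normalization. For the 24 sorted libraries, RNA came from 20000 to 100000 sorted cells, and no cell number is given for the others. The submitters' processing notes name Bowtie 0.12.7 and mm10, whereas the study's methods name mm9. The file positions of all 9 genes lie inside or just before their GRCm38 (mm10) genes. Between 99.6% and 100% of the reads of each gene were uniquely placed. Repeat rows were left out of CPM and of the tests.

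Counts were fitted in edgeR 4.0.16 (R 4.3.3) with TMM scaling, filterByExpr and 1 coefficient per condition, using the quasi-likelihood F test and Benjamini-Hochberg adjustment over the 15630 genes kept (common dispersion 0.217). All 9 genes passed the filter. DESeq2 1.42.0, DESeq2 size factors, no filter, a replicate block, leaving out 7 sorted libraries or each replicate in turn, and other CPM denominators were alternatives. Comparisons within a cassette (2i) were added after the data had been seen. In a test on simulated data for E-CAD in 2NG- (15630 genes, 200 changed 4-fold), edgeR called 63 of the 200 and 2 unchanged genes, and DESeq2 88 and 10.

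The genes named were the 9 genes, the sorted markers and up to 4 genes per list by FDR among those called in 2NG- (E-CAD and MKOS against OKMS), and list genes named for other comparisons were chosen after their values were seen. Where none of the 9 was called, some comparisons are given as the range over the 9. Members and lists were chosen with earlier results of these data known. Claudin-domain genes (*Cldnd*) were not counted as claudins. MEF folds rest on a floor of 3 reads over the MEF group where that group held 0 reads. At 1 to 3 reads they have counting intervals, and above 3 reads they are ratios to the pooled MEF level. Intervals and floors cover counting error only. Tables and figures were made with Python 3.11.15, pandas 2.3.3, NumPy 2.4.6, SciPy 1.17.1 and Matplotlib 3.10.9.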

Additional observations from a re-analysis of the deposited data

How the results depend on the processing

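Of the 56 member changes called, 39 were called in every setting tried, most of them against MEFs, and 0 reversed. Other comparisons lost a larger share of calls. In the E-CAD comparison 7 of the 9 genes were called in 2NG- (6 to 8 in the alternatives, 5 to 7 with single replicates left out) and 6 in 3NG- (6 or 7, and 4 to 6). Numbers of calls that moved more follow. MKOS against OKMS in 2NG- went from 2 to 0 without 7 sorted libraries, and to 1 to 2 with single replicates left out. Without the low-count filter (19768 genes tested), 1 gene was called in 3NG-, 2 in 3NG+, 4 for MKOS 3NG- to 3NG+, 3 for OKMS 3NG- to 3NG+, 1 for the difference between the latter, 2 for MKOS 3NG+ to iPSC and 1 for iPSCs against ESCs. MKOS 3NG- to 3NG+ (1 gene) gave 3 with DESeq2, 2 without the 7 libraries and 0 to 2 with single replicates left out, and OKMS 3NG- to 3NG+ (1 gene) gave 3 and 0 to 2 for the last of these. OKMS MEFs to E-CAD- cells (7 genes) gave 4 to 7, OKMS 3NG+ to iPSC (0 genes) 0 to 1 and 2i (4 genes) 1 to 4, or 1 within MKOS and 1 within OKMS iPSCs. Of all 180 gene and comparison pairs, 44 changed sign in some setting, none of them called. Those printed or plotted follow, with ranges over single replicates left out. *Cldn7* from OKMS 3NG+ to iPSC (-0.74) was 0.22 without the 7 libraries (-9.94 to 0.28), and *Ocln* there (0.60) ranged from -6.78 to 1.62. *Cldn6* in iPSCs against ESCs (1.03) ranged from -0.025 (without OKMS iPSC -dox replicate 1) to 1.55. *Cldn4* in 2i (0.071) was -0.037 within MKOS iPSCs (-0.36 to 0.58). Between MKOS and OKMS, *Cldn4* in 2NG- (-0.055) was 0.13 with the replicate block (-0.60 to 0.33), *Esrp2* in 2NG- (-0.069) ranged from -0.49 to 0.25, *Ocln* in 3NG- (-0.29) from -0.87 to 0.12, *Cldn3* in 3NG+ (-0.084) from -0.77 to 0.20, and *Cldn7* in 3NG+ (-0.91) was 0.024 without the 7 libraries (-1.37 to 0.034, the latter without OKMS 3NG+ replicate 2). *Esrp2* from OKMS E-CAD+ 2NG- to 3NG- (-0.0096) was 0.0018 with DESeq2 and 0.080 with the block (-0.43 to 0.31), and the difference of the E-CAD effects for *Ocln* (0.90) ranged from -0.32 to 2.06. The cause was not tested.

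Counts over all genes moved more. E-CAD in 2NG- went from 372 to 843 without the filter (192 to 429 with single replicates left out) and E-CAD in 3NG- from 274 to 660 without the filter, 416 with DESeq2 and 159 without the 7 libraries. The difference between those effects went from 2 to 55 without the filter and to 0 with DESeq2, the block or without the 7 libraries. Without the filter and with DESeq2, counts went from 339 to 864 and 556 (MKOS against OKMS in 3NG-), from 107 to 484 and 271 (3NG+), from 61 to 237 and 105 (MKOS 2NG- to 3NG-), from 6 to 149 and 17 (OKMS E-CAD+), from 7 to 104 and 26 (OKMS E-CAD-), from 247 to 887 and 609 (MKOS 3NG- to 3NG+), from 4 to 163 and 20 (its difference from OKMS), from 335 to 799 and 567 (MKOS 3NG+ to iPSC), from 96 to 384 and 217 (OKMS) and from 219 to 564 and 503 (iPSCs against ESCs). Without the filter alone, 793 became 1260 (MKOS against OKMS in 2NG-) and 679 became 1025 (2i), and with DESeq2 alone 979 became 1481 (OKMS 3NG- to 3NG+). Without the 7 libraries, 107 became 219, 6 became 33, 7 became 3, 247 became 559, 4 became 46, 335 became 585 and 219 became 389 in the same comparisons, and with the block 247 became 425 and 4 became 8. With single replicates left out, E-CAD in 3NG- gave 165 to 268 genes. MKOS against OKMS gave 457 to 607 (2NG-), 151 to 265 (3NG-) and 40 to 122 (3NG+). MEFs to 2NG- gave 2651 to 3716 (MKOS), 1959 to 2894 (OKMS E-CAD-) and 2826 to 3970 (OKMS E-CAD+). Likewise, 2NG- to 3NG- gave 11 to 48 (MKOS), 1 to 55 (OKMS E-CAD+) and 3 to 11 (OKMS E-CAD-). The step from 3NG- to 3NG+ gave 57 to 278 (MKOS) and 352 to 1282 (OKMS), and 3NG+ to iPSC 119 to 257 and 11 to 158. For 2i the range was 367 to 607 and for iPSCs against ESCs 75 to 446. TMM-scaled CPM moved 6 of 180 levels by more than their spread and adding repeat reads to the denominator moved 35.

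Same-numbered sorted libraries had correlated deviations of mean r = 0.0810 over 84 pairs (-0.0414 to 0.352), against -0.0404 for different numbers. For replicate 3 the mean was 0.133 and all 28 pairs were above 0 (0.0446 to 0.352). Not every pair exceeded 0.1, but that bar is no test for a shared batch, and whether the numbers mark one was not tested. No source ties the numbers to a shared culture or day, and the samples were not treated as paired. With the replicate block, called genes were 7 and 6 for E-CAD, 6 for OKMS MEFs to E-CAD- cells (*Cldn6* lost, FDR = 0.0579), 3 for MKOS 3NG- to 3NG+ (*Cldn4* gained, FDR = 0.0347, and *Cldn3*, FDR = 0.0437) and 2 for OKMS 3NG- to 3NG+ (*Cldn7* gained, FDR = 0.0494). At 0 reads the depth allows a level of up to 0.212 to 2.10 CPM, depending on the library.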
